A study of Homo sapiens with 8 samples.

Results

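The laminin chains in these data are 9 genes, the alpha chains LAMA1 to LAMA5, the beta chains LAMB1 to LAMB3 and the gamma chain LAMC1, out of 20719 gene IDs counted. They were taken by symbol and chosen by the counts of LAMB1, which had almost no ribosome footprints in 1 of the 2 cell lines compared, so the values between the lines are a description, without a test. Of the 9 chains, 7 passed the expression filter of edgeR, and LAMA2 and LAMB3 did not. LAMA1 and LAMB1 passed it only through the SMARCB1 line, where their counts were higher.

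Ribosome footprints were sequenced from G401, a cell line from a rhabdoid tumor of the kidney that lacks SMARCB1, a subunit of the mSWI/SNF chromatin remodeling complex. The SMARCB1 line carries a "Tet-On" construct that expresses SMARCB1 in the presence of doxycycline (Dox), and the GFP line carries the same system with GFP. Each line is 1 engineered derivative of G401 and was treated for 12 h with Dox at 0.1 µg/ml or with DMSO. The 4 groups hold 2 libraries each, and each library comes from plates that were pooled. The methods describe the experiments as done in duplicate but do not say that the paired libraries came from separate cultures, so p-values measure only the spread between libraries, which may be technical.

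Laminins are large secreted proteins of basement membranes, each an assembly of an alpha, a beta and a gamma chain joined in a coiled coil. They are put together in the endoplasmic reticulum, where beta and gamma chains pair before an alpha chain joins, and outside the cell they polymerize and bind integrins and dystroglycan. In the kidney, laminins build the basement membranes of tubules and glomeruli, and the beta chain of the glomerular membrane changes during development.

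The chains are paralogs, and reads that fit several genes could be lost or misplaced between them. The near absence of LAMB1 counts in a line that reads LAMB2 well rests on telling them apart. The stretches below hold the longest run shared exactly by LAMB1 and LAMB2, and the longest shared by any pair of the chains. Each is 60 bases of the coding strand of GRCh38, printed 5′ to 3′ in lower case, with the longest run shared exactly by the pair in capitals. The LAMB1 stretch is chr7:108001624-108001683 on the minus strand and the LAMB2 stretch is chr3:49132557-49132616 on the minus strand.
LAMB1: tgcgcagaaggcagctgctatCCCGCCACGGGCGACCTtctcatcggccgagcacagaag
LAMB2: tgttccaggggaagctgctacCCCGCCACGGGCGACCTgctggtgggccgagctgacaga

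The longest run shared by any pair of the 9 chains was 23 bases, between LAMA1 at chr18:7023198-7023257 on the minus strand and LAMC1 at chr1:183114608-183114667 on the plus strand.
LAMA1: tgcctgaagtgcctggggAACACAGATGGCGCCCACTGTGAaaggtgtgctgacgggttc
LAMC1: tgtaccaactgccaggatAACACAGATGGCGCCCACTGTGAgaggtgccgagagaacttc

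The longest run shared exactly by LAMB1 and LAMB2 was 17 bases. LAMB1 shared longer runs with LAMB3, of 20 bases, and with LAMA2, of 19. No stretch of 28 bases of any chain's coding sequence, about a footprint's length, was found in the same orientation in an annotated transcript of another gene. In the opposite orientation such stretches were found for 5 of the chains, among them 46 of the 5331 in LAMB1, which lie in transcripts of its neighbor DLD. The strand option of the counting is not given in the sources used here, so reads from those stretches cannot be told apart from antisense reads. No coding base of any chain overlapped the coding sequence of another gene.

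The libraries held 5924443 to 14000039 counts on genes. Reads with several alignments made up 25.6% to 39.65% of the alignments in 7 libraries and 56.36% in GFP Dox replicate 1, which stood apart. SMARCB1 had 0 counts in 6 libraries, and 2553 and 1750 counts in the SMARCB1 Dox libraries. All libraries read VIM, KRT8 and KRT18, which rhabdoid cells express, at 745.5 CPM or more, where CPM is the count scaled to library size after TMM normalization. The markers of epithelium, endothelium, leukocytes, skeletal muscle and kidney tubule (CDH1, EPCAM, PECAM1, CDH5, PTPRC, MYOD1, DES, LRP2 and CUBN) stayed at or below 1.819 CPM in every library. No RNA-seq was analysed here, so the values are ribosome occupancy, and fewer cells with a footprint and fewer footprints per cell cannot be told apart.

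The beta chain LAMB1 lies on chromosome 7 at 107923799 to 108003213, minus strand, with 33 coding exons. It had 1360 and 2638 counts in SMARCB1 DMSO and 4652 and 2705 in SMARCB1 Dox, but 4 and 10 in GFP DMSO and 0 and 2 in GFP Dox. On the CPM scale the 4 libraries of the SMARCB1 line read 227 and 205 under DMSO and 389 and 429 with Dox, and no library of the GFP line exceeded 0.694. The lowest library of the SMARCB1 line was 296-fold above the highest of the GFP line. From summed counts scaled to depth, the ratio of SMARCB1 DMSO to GFP DMSO was 403, with a 95% exact binomial interval of 240 to 737. With Dox it was 2580, with an interval of 714 to 21300, since the GFP line held 2 counts. These intervals cover counting error only and leave out the spread between libraries. LAMB1 was chosen by this difference, so they are no test of the lines.

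LAMB2, the beta chain of glomerular and neuromuscular basement membranes, was read in both lines (chromosome 3, 49121114 to 49133118, minus strand, 32 coding exons). It had 600 and 1269 counts in SMARCB1 DMSO, 1076 and 733 in SMARCB1 Dox, 1454 and 2286 in GFP DMSO, and 919 and 1115 in GFP Dox. These were 99.4 ± 0.853, 103.1 ± 18.5, 139.1 ± 27.7 and 158.4 ± 9.09 CPM (SD, n = 2). The libraries of the GFP line all lay above those of the SMARCB1 line, by 1.47-fold of the means, but the lowest of them exceeded the highest of the SMARCB1 line by only 1.03-fold. LAMB3, which joins LAMA3 in the laminin of skin (chromosome 1, 209614870 to 209652425, minus strand, 22 coding exons), had 13 counts in the 4 libraries of the SMARCB1 line and 3 in those of the GFP line. Its counts ranged from 0 to 9 and the lines overlapped.

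LAMC1, the gamma chain of most laminins, had the highest density of the 9 chains in every group (chromosome 1, 183023420 to 183145592, plus strand, 28 coding exons). It had 411 and 387 CPM in SMARCB1 DMSO, 431 and 463 in SMARCB1 Dox, 675 and 706 in GFP DMSO, and 705 and 672 in GFP Dox. The lines did not overlap, and the GFP line was 1.63-fold higher by the means.

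LAMA4, an alpha chain of blood vessels, muscle and mesenchyme, ran opposite to LAMB1 (chromosome 6, 112107931 to 112254939, minus strand, 38 coding exons). Its counts were 58 and 122 in SMARCB1 DMSO and 54 and 36 in SMARCB1 Dox, against 3486 and 3846 in GFP DMSO and 2590 and 1679 in GFP Dox. In CPM these were 9.67, 9.50, 4.52 and 5.70 in the SMARCB1 line and 287, 267, 428 and 248 in the GFP line. The lowest GFP library was 25.7-fold above the highest SMARCB1 library, and the line means differed 28.9-fold under DMSO and 66.2-fold with Dox.

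LAMA5, the alpha chain widespread in adult epithelia and vessels, was read in both lines (chromosome 20, 62307955 to 62367312, minus strand, 80 coding exons). It had 118 and 103 CPM in SMARCB1 DMSO, 125 and 162 in SMARCB1 Dox, 69.6 and 85.3 in GFP DMSO, and 71.3 and 92.0 in GFP Dox. The SMARCB1 line was 1.6-fold higher by the means and its lowest library was 1.12-fold above the highest GFP library. LAMA3, the alpha chain of skin and other epithelia (chromosome 18, 23689453 to 23956222, plus strand, 75 coding exons), had 33.3, 17.4, 26.8 and 25.7 CPM in the SMARCB1 line and 10.7, 8.26, 18.8 and 8.28 in the GFP line. The lines overlapped in 1 library, GFP Dox replicate 1, which lay above SMARCB1 DMSO replicate 2.

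LAMA1, an alpha chain of early embryos and kidney tubules (chromosome 18, 6941742 to 7117797, minus strand, 63 coding exons), was rare. It had 8 and 20 counts in SMARCB1 DMSO, 12 and 7 in SMARCB1 Dox and 1 count in all GFP libraries together. Under DMSO the ratio of the lines was 39.5 (95% exact binomial interval 6.53 to 1610). With Dox, on 19 counts against 0, the lower 95% exact binomial bound was 3.27-fold. Setting the 0 counts of the group to 3 gave a ratio of 4.44, which is no lower bound. LAMA2, the alpha chain of skeletal muscle and Schwann cells (chromosome 6, 128883138 to 129516566, plus strand, 65 coding exons), had 3 counts, all in SMARCB1 Dox, which does not separate the lines at this depth.

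**Figure D1:**
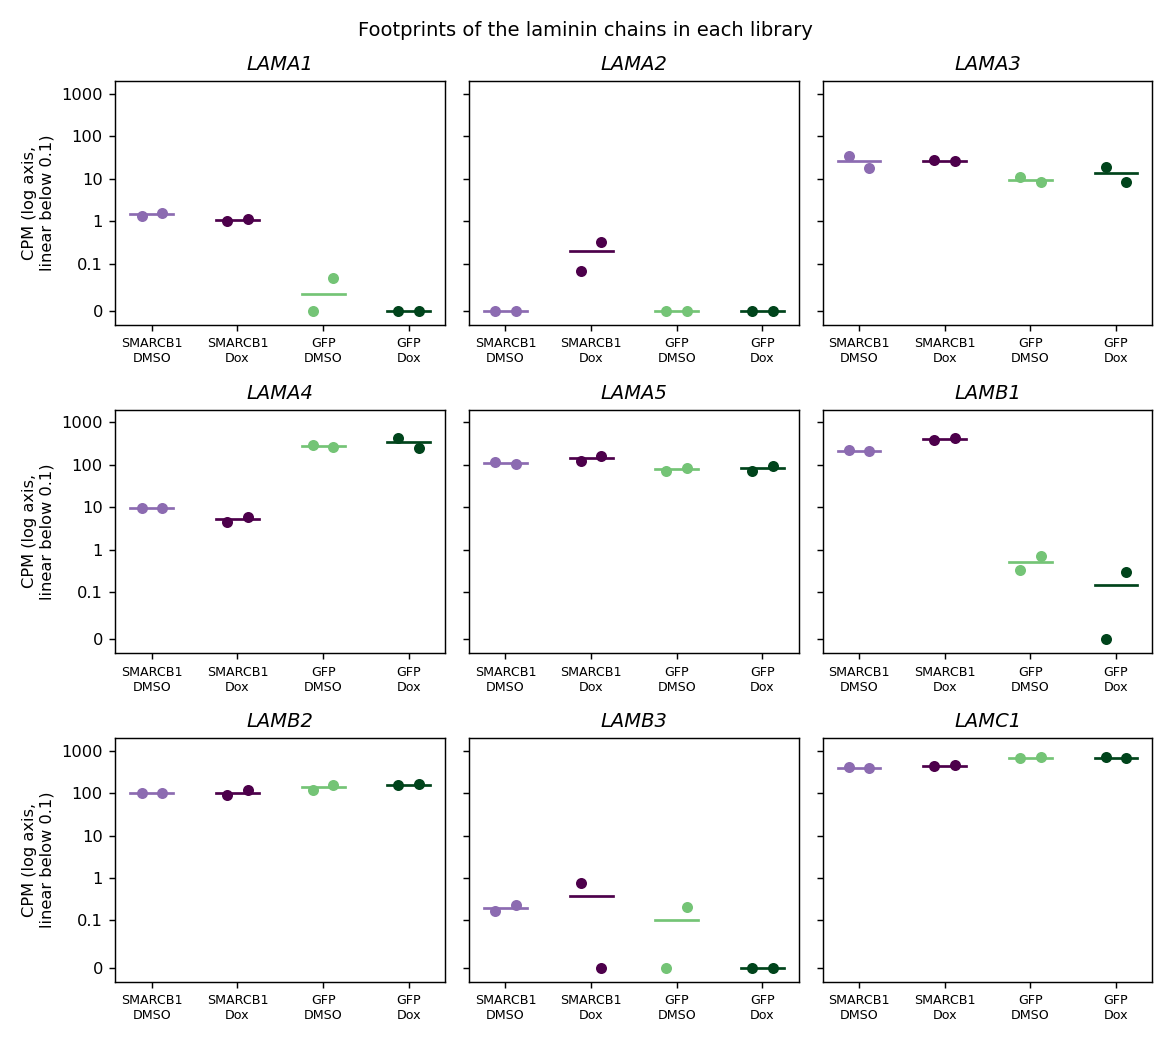
CPM of each of the 9 laminin chains in each of the 8 libraries, with 1 panel per chain, 1 point per library and a line at each group's mean, on an axis that is logarithmic above 0.1 CPM. LAMB1 lies above 205 CPM in the SMARCB1 line and below 0.695 in the GFP line, and LAMA4 lies below 9.67 CPM in the SMARCB1 line and above 248 in the GFP line.

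Across the 4 libraries of each line, 6 of the 9 chains did not overlap, LAMA1, LAMA5 and LAMB1 being higher in the SMARCB1 line and LAMA4, LAMB2 and LAMC1 higher in the GFP line. Among all genes tested, 17.6% did not overlap in this way, 8.61% being higher in the SMARCB1 line and 8.95% lower. Scaling by library size alone left 4 of these chains, since LAMA5 and LAMB2 then overlapped. The chains were chosen by LAMB1, with earlier results of these data known, so nothing is read from these counts.

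Levels of different genes were compared as CPM per kb of coding sequence. In SMARCB1 DMSO the order was LAMC1 at 82.6 ± 3.53 CPM per kb (SD, n = 2), LAMB1 at 35.3 ± 2.46, LAMB2 at 18.4 ± 0.158, LAMA5 at 9.66 ± 0.913, LAMA3 at 2.41 ± 1.07 and LAMA4 at 1.65 ± 0.0205. The libraries of LAMA3 and LAMA4 overlapped there, and their order is not set. In GFP DMSO the order was LAMC1 at 143.1 ± 4.61 CPM per kb (SD, n = 2), LAMA4 at 47.5 ± 2.38, LAMB2 at 25.8 ± 5.14, LAMA5 at 6.78 ± 0.976 and LAMA3 at 0.900 ± 0.163, followed by LAMB1 at 0.0837. With Dox, LAMB1 reached 66.9 ± 4.57 CPM per kb in the SMARCB1 line, still below LAMC1 at 92.5 ± 4.74. LAMA4 in GFP Dox was 58.1 ± 21.9 CPM per kb, a spread set by replicate 1 at 73.5 and replicate 2 at 42.6.

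Because a laminin holds a chain of each class, the summed densities of the classes were set side by side. The gamma class was LAMC1 alone, and LAMC3, a gamma chain outside the 9, was left out. LAMC3 had 6.46 CPM per kb in SMARCB1 DMSO, 5.72 in SMARCB1 Dox, 5.29 in GFP DMSO and 4.88 in GFP Dox. The beta chains together had 0.651 ± 0.00377 of the density of LAMC1 in SMARCB1 DMSO (SD, n = 2), 0.929 ± 0.0372 in SMARCB1 Dox, 0.181 ± 0.0307 in GFP DMSO and 0.206 ± 0.0191 in GFP Dox. Without LAMB1 this ratio was 0.224 ± 0.00781, 0.207 ± 0.0248, 0.180 ± 0.0304 and 0.206 ± 0.0188 (SD, n = 2). The higher beta ratio in SMARCB1 Dox was thus absent without LAMB1, whose own change with Dox was not called, and the ratios were not tested. LAMB2 alone ranged from 0.159 of the density of LAMC1 in GFP DMSO replicate 1 to 0.229 in SMARCB1 DMSO replicate 2. The alpha chains together had 0.168 ± 0.0169 of the density of LAMC1 in SMARCB1 DMSO, 0.173 ± 0.0166 in SMARCB1 Dox, 0.386 ± 0.0233 in GFP DMSO and 0.464 ± 0.134 in GFP Dox. The beta sum thus exceeded the alpha sum in the SMARCB1 line and lay below it in the GFP line.

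The makeup of each class differed between the lines as well. LAMA5 held 69.9% ± 3.41 of the alpha density in SMARCB1 DMSO (SD, n = 2) and 78.0% ± 2.67 in SMARCB1 Dox, with LAMA3 next at 17.0% and 15.7%. LAMA4 held 86.1% ± 1.88 of it in GFP DMSO and 86.5% ± 5.18 in GFP Dox, where LAMA5 held 12.3% and 11.6%. LAMB1 held 65.6% ± 1.40 of the beta density in SMARCB1 DMSO and 77.8% ± 1.78 in SMARCB1 Dox, and LAMB2 held 99.6% and 99.9% in the GFP line. The shares were not tested, and no chain's change with Dox was called. Footprint density is not protein amount, and no protein was measured here.

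**Figure D2:**
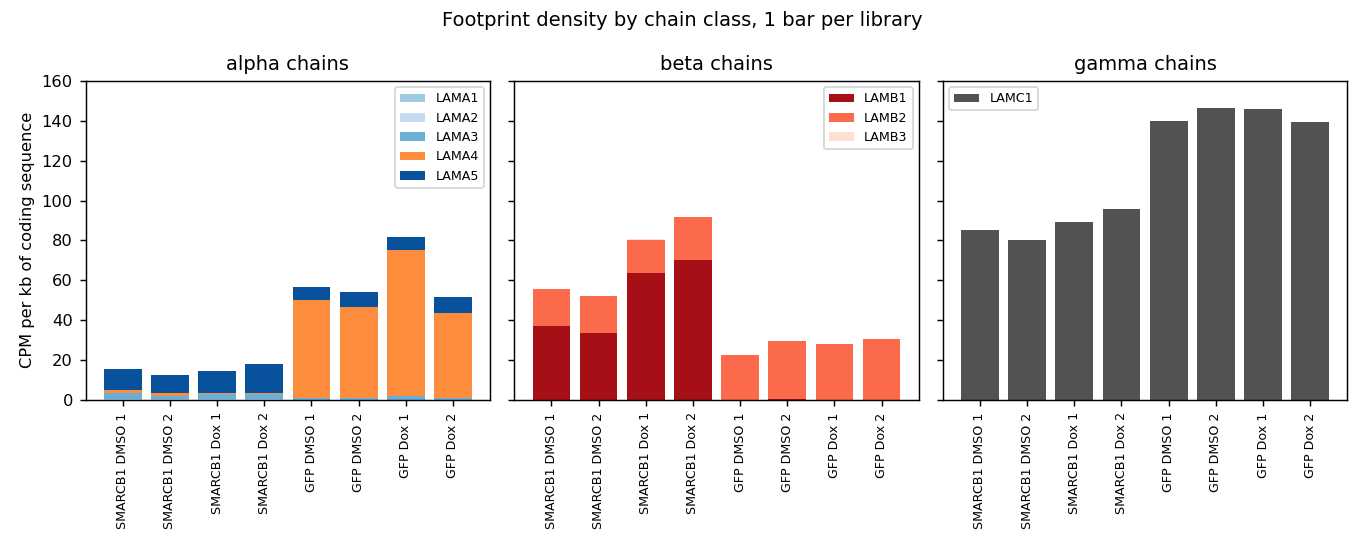
Footprint density (CPM per kb of coding sequence) of the alpha, beta and gamma chains, with 1 stacked bar per library and 1 color per chain. Most of the alpha bar of the SMARCB1 line is LAMA5, that of the GFP line is LAMA4, and the beta bar of the GFP line is nearly all LAMB2.

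To see whether SMARCB1 re-expression changed the chains within 12 h, Dox was compared with DMSO in each line. No chain was called in either line. In the SMARCB1 line the change of every tested chain also stayed below the fold of 2 that a call requires. In the SMARCB1 line 0 of the 7 chains tested were called, where 0.018% of all genes were, and 2 had an unadjusted p-value below 0.05, where 4.97% of all genes did. The libraries of the groups did not overlap for 5 of them, against 35.6% of all genes. The median log2 fold change was 0.06 over the chains and -0.02 over all genes.

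LAMB1 had 1.89-fold more footprints in SMARCB1 Dox than in SMARCB1 DMSO (log2 fold change 0.92, SE 0.27), and both Dox libraries lay above both DMSO libraries. Its adjusted p-value from edgeR's quasi-likelihood test was 0.455 (unadjusted 0.00378). Over the alternatives that kept 2 libraries per group it lay between 0.0682, from DESeq2, and 0.452, from edgeR's robust fit. DESeq2 is the package named in the study's methods. LAMA4, already low in this line, had a log2 fold change of -0.92 (SE 0.32) with both Dox libraries below both DMSO libraries, and an adjusted p-value of 0.716 in edgeR's quasi-likelihood test (unadjusted 0.0114). LAMA5 and LAMC1 lay higher in both Dox libraries, with log2 fold changes of 0.38 (SE 0.24) and 0.16 (SE 0.23). LAMB2 and LAMA3 overlapped between the groups, at 0.05 (SE 0.24) and 0.06 (SE 0.39). LAMA1, on 28 and 19 summed counts, had -0.47 (SE 0.91). The adjusted p-values of these 5 chains were 1 in edgeR's quasi-likelihood test.

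In the GFP line 0 of 6 chains were called, where 0% of all genes were, and 0 had an unadjusted p-value below 0.05 in edgeR's test, where 2.16% of all genes did. DESeq2 likewise called 0 chains. The log2 fold changes were 0.51 (SE 0.41) for LAMA3, 0.29 (SE 0.26) for LAMA4, 0.08 (SE 0.25) for LAMA5, 0.19 (SE 0.24) for LAMB2 and -0.00446 (SE 0.23) for LAMC1. LAMB1 was the only chain whose groups did not overlap, where 26.4% of all genes did not, and it rested on 14 counts under DMSO and 2 with Dox, a depth-scaled ratio of 3.38 (95% exact binomial interval 0.775 to 30.6).

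The difference between the Dox effects of the 2 lines was tested directly. It was 2.59 on the log2 scale (SE 0.89) for LAMB1 and -1.21 (SE 0.41) for LAMA4, each with an adjusted p-value of 0.981 in edgeR's quasi-likelihood test and unadjusted p-values of 0.0115 and 0.0108. For LAMB1 it again rests on the few counts of the GFP line, by which the chains were chosen, so its p-value is no support for a Dox effect. The difference for LAMB1 was 1.72 without GFP Dox replicate 1 and 6.34 without GFP Dox replicate 2. None of the 6 chains was called, where 0% of all genes were. Of them 2, LAMB1 and LAMA4, had an unadjusted p-value below 0.05 in edgeR's test, where 3.99% of all genes did. Nothing is read from this count. Without GFP Dox replicate 2, so with the library of many multiple alignments alone in its group, the difference for LAMA4 was -1.55 with an adjusted p-value of 0.049 in edgeR's quasi-likelihood test. In the other settings that value lay between 0.507 and 1. The other 4 chains differed by -0.45 (SE 0.56) for LAMA3, 0.30 (SE 0.35) for LAMA5, -0.14 (SE 0.34) for LAMB2 and 0.17 (SE 0.32) for LAMC1. The sign turned for LAMA3 without SMARCB1 DMSO replicate 1 (0.08) or GFP Dox replicate 1 (0.26), and for LAMB2 without SMARCB1 Dox replicate 1 (0.04) or GFP DMSO replicate 1 (0.06), or when scaled by library size alone (0.05).

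**Figure D3:**
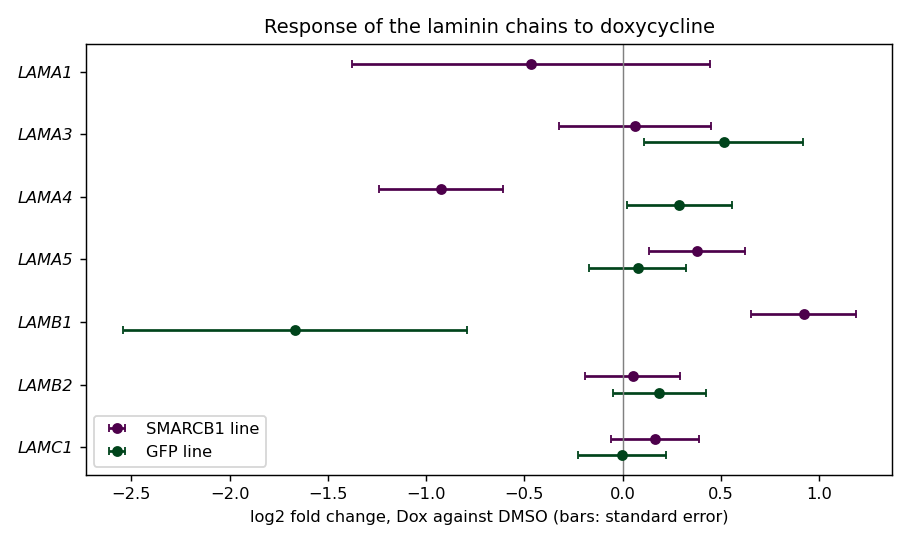
Log2 fold change of Dox against DMSO for the chains that could be fitted, with points for the SMARCB1 line and the GFP line and bars for the standard error. LAMB1 is at 0.92 and LAMA4 at -0.92 in the SMARCB1 line, and the LAMB1 point of the GFP line rests on 14 and 2 counts.

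The genes whose log2 CPM ran most like LAMB1 over the 8 libraries were SIX4, a homeobox transcription factor (Pearson r = 0.997), MAP3K20, a stress-activated kinase (0.996), ITGA6, a laminin-binding integrin subunit (0.996), PCSK6, a proprotein convertase (0.995), and NT5E, a cell surface nucleotidase (0.994). These correlations are descriptions over libraries that fall into the lines, and any gene that separates the lines cleanly scores high. The size of the difference was not alike, since SIX4 ranged from 14.9 to 29.1 CPM and NT5E from 0.165 to 55.0. The lowest correlations were those of LAMA4 (-0.996), LZTS1 (-0.996) and PDZD2 (-0.995). Among the other chains r was 0.981 for LAMA1, 0.886 for LAMA5, 0.775 for LAMA3, -0.853 for LAMB2 and -0.961 for LAMC1.

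The genes that work with laminins were read from 6 lists of 63 genes, which cover further laminin chains, netrins, basement membrane partners, receptors, the enzymes that glycosylate dystroglycan, and proteases that process laminins. Of these, 36 passed the filter and 9 had 0 counts in all libraries. Under DMSO the SMARCB1 line had 5 partner genes called above the GFP line and 3 below it, where 2.49% of all genes were higher and 2.49% lower in edgeR's quasi-likelihood test (4.97% in all). With Dox 8 were higher and 2 lower, where 3.1% of all genes were higher and 2.98% lower (6.08% in all). COL4A5 and COL4A6, counted among the higher genes in both, passed the filter only through the SMARCB1 line. The median log2 difference of the 36 genes was 0.224 under DMSO and 0.215 with Dox, against 0.02 and -0.01 over all genes. The lists were chosen with earlier results of these data known, so nothing is read from these counts and medians as a set.

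Among the receptors, 10 of 14 genes were tested. ITGA6 had 144 and 106 CPM in SMARCB1 DMSO, 149 and 137 in SMARCB1 Dox, 14.96 and 17.98 in GFP DMSO, and 13.2 and 15.1 in GFP Dox. The lines did not overlap, and the log2 difference was 2.92 under DMSO (SE 0.26) and 3.33 with Dox (SE 0.27), with adjusted p-values of 4.43e-06 and 1.94e-06 in edgeR's quasi-likelihood test. BCAM, a receptor of LAMA5, was lower in the SMARCB1 line, by a log2 difference of -1.60 under DMSO (SE 0.27) and -1.25 with Dox (SE 0.27), with adjusted p-values of 0.00177 and 0.0101 in edgeR's test. ITGA3, SDC2 and SDC4, an integrin subunit and 2 syndecans, were called higher with Dox only, with log2 differences of 1.36, 1.10 and 1.40 there and 0.90, 0.95 and 0.75 under DMSO. SDC2 passed the adjusted p-value under DMSO as well (0.0486 in edgeR's test) and missed the fold of 2. With Dox, the call of ITGA3 was lost without SMARCB1 Dox replicate 1 or 2 or GFP Dox replicate 1, that of SDC2 without SMARCB1 Dox replicate 1 or 2, and that of BCAM without SMARCB1 Dox replicate 1, with adjusted p-values in edgeR's test up to 0.162, 0.14 and 0.212. Whether the line differences themselves changed with Dox is the same contrast as the difference between the Dox effects, in which no partner gene was called. ITGB1, the partner of both integrin subunits, had log2 differences of 0.32 and 0.01, and DAG1, which encodes dystroglycan, of 0.10 and 0.09, and neither was called.

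Among 22 basement membrane partners, 9 were tested. COL4A5 and COL4A6, type IV collagen chains that form a network together, were higher in the SMARCB1 line under both treatments. COL4A5 had 581, 1257, 938 and 490 counts in the SMARCB1 line and 0, 12, 3 and 10 in the GFP line, a log2 difference of 7.73 under DMSO (SE 0.59) and 6.25 with Dox (SE 0.57). The value under DMSO was 12.8 without GFP DMSO replicate 2, which leaves GFP DMSO at 0 counts, so its size is set by few counts. COL4A6 had 275, 681, 449 and 283 counts in the SMARCB1 line and 5, 5, 0 and 1 in the GFP line, a log2 difference of 6.99 under DMSO (SE 0.42). Its fitted value with Dox, 8.82, rests on the 1 count in GFP Dox and is no bound. SPARC, a collagen-binding matrix protein, had 2157, 3177, 1936 and 1897 CPM in the SMARCB1 line and 258, 194, 334 and 167 in the GFP line, with log2 differences of 3.56 (SE 0.36) and 2.93 (SE 0.35). The adjusted p-values of SPARC were at most 7.76e-05 in edgeR's quasi-likelihood test.

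TINAGL1, a secreted protein of basement membranes, was lower in the SMARCB1 line under DMSO (log2 difference -1.56, SE 0.31, adjusted p = 0.00661 in edgeR's quasi-likelihood test) and not called with Dox (-0.34, SE 0.30). Its log2 fold change with Dox in the SMARCB1 line was 1.26 (SE 0.31), with an adjusted p-value of 0.34 in edgeR's test. The call under DMSO was lost without SMARCB1 DMSO replicate 2 or GFP DMSO replicate 1, with adjusted p-values up to 0.0902 in edgeR's test.

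LAMC3, a further gamma chain, had 20.3 to 33.2 CPM and was not called, and LAMB4 had 0 counts in all libraries.

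NTN4, a netrin that binds laminin gamma chains and disturbs laminin networks, was the netrin that passed the filter, out of 6. It was higher in the SMARCB1 line by a log2 difference of 1.88 under DMSO (SE 0.25) and 1.32 with Dox (SE 0.25), with adjusted p-values of 0.000211 and 0.00382 in edgeR's quasi-likelihood test. None of 10 tested genes that glycosylate dystroglycan was called by edgeR between the lines, and their median log2 difference was 0.0739 under DMSO and 0.102 with Dox. Of 5 tested proteases and their helpers, PCOLCE, an enhancer of procollagen processing, was lower in the SMARCB1 line, by -2.09 under DMSO (SE 0.35) and -2.18 with Dox (SE 0.35). Its adjusted p-values were at most 0.00151 in edgeR's quasi-likelihood test.

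None of the 36 partner genes was called for Dox against DMSO in either line, where 0.018% (SMARCB1 line) and 0% (GFP line) of all genes were called. In edgeR's test 3 of them in the SMARCB1 line had an unadjusted p-value below 0.05, where 4.97% of all genes did, and in the GFP line 0 did, where 2.16% of all genes did. The smallest in the SMARCB1 line were those of TINAGL1 and SDC4, the latter with a log2 fold change of 0.59 (SE 0.24). In the GFP line they were those of COL4A6, with -2.1 (SE 1.0) on few counts, and of POMGNT2, a glycosyltransferase that acts on dystroglycan, with 0.59 (SE 0.33).

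**Figure D4:**
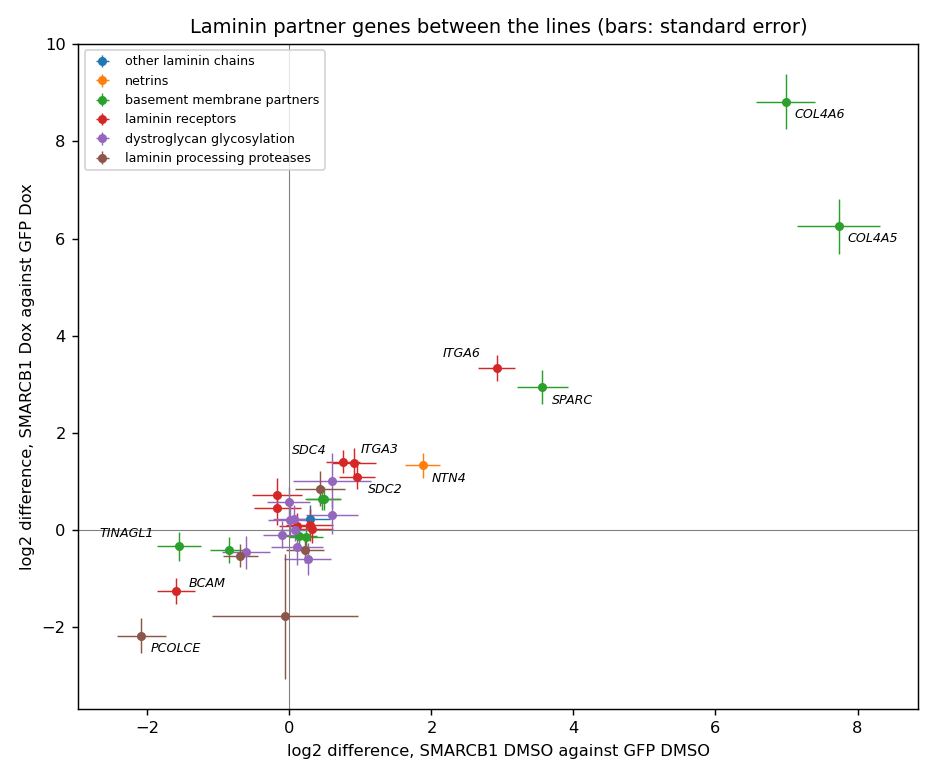
Log2 difference between the SMARCB1 line and the GFP line for the 36 partner genes tested, under DMSO on the horizontal axis and with Dox on the vertical axis, with bars for the standard error and colors for the 6 lists. COL4A5, COL4A6, SPARC and ITGA6 lie high on both axes and PCOLCE and BCAM low on both, and the COL4A6 value with Dox rests on 1 count in the GFP line.

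The genes around LAMB1 were read to see whether the difference between the lines extended along the chromosome. Within 500 kb on either side the annotation holds 12 other protein-coding genes, of which 5 were tested, COG5, DUS4L, CBLL1, DLD and PNPLA8. None was called between the lines, with adjusted p-values of 0.476 to 0.969 in edgeR's quasi-likelihood test. DLD, a subunit of mitochondrial dehydrogenase complexes whose gene overlaps that of LAMB1 on the other strand, had 535.4 to 1083.0 CPM and log2 differences of 0.11 under DMSO (SE 0.30) and -0.44 with Dox (SE 0.30). The log2 differences of COG5, a Golgi tethering protein, were -0.13 and -0.23, those of DUS4L, a tRNA-modifying enzyme, 0.15 and -0.18, those of CBLL1, a ubiquitin ligase, -0.11 and -0.37, and those of PNPLA8, a phospholipase, -0.29 and 0.04. LAMB4, the closest gene upstream of LAMB1, had no counts, as did GPR22, BCAP29 and SLC26A3, and DUS4L-BCAP29, SLC26A4 and NRCAM had at most 9 in any library. DUS4L-BCAP29 is annotated across DUS4L and BCAP29 on the same strand. Reads on coding sequence that such genes share are counted for none of them. The low counts of DUS4L, BCAP29 and DUS4L-BCAP29 thus need not mean few footprints, and how many reads were lost this way was not tested.

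**Figure D5:**
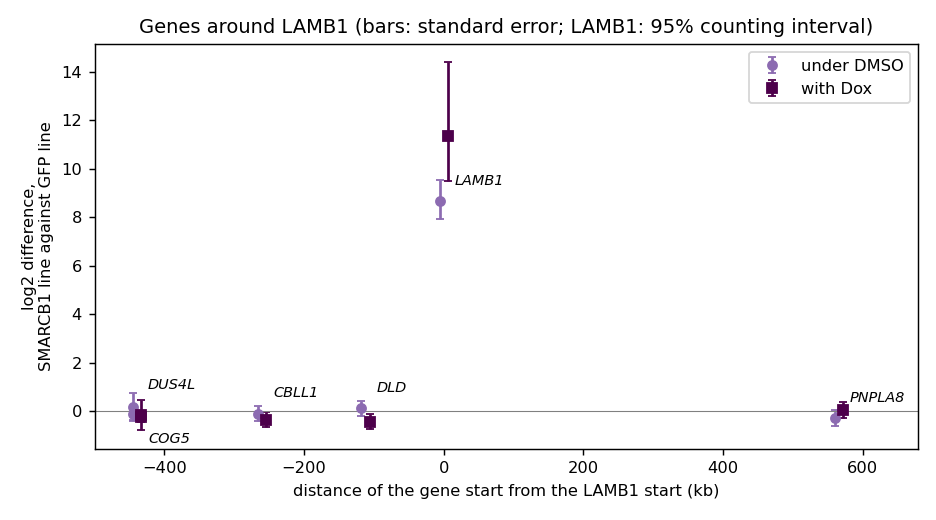
Log2 difference between the SMARCB1 line and the GFP line, under DMSO and with Dox, for LAMB1 and the 5 tested genes around it, by the distance of each gene's start from that of LAMB1 in kb. Bars are standard errors, and for LAMB1 the points are log2 ratios of summed counts scaled to depth, with 95% exact binomial intervals. The 5 neighbors lie between -0.44 and 0.15.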

How the data were processed

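Ribosome profiling libraries were made with the RiboLace kit. The authors aligned reads with STAR and counted those on coding sequences (GENCODE annotation 42) with HTSeq, whose intersection-strict option was set, and deposited raw counts per gene. Versions of these tools, the strand option and the handling of adapters and ribosomal RNA are not given in the sources used here. Rows of reads without a gene were left out. Among uniquely aligned reads, 36.61% to 45.89% lay on no coding sequence and 1.29% to 1.74% were ambiguous.

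Gene IDs, stripped of their version, were looked up in GENCODE annotation 44 for symbols, GRCh38 positions and coding lengths, and 311 of 20719 were not found. Lengths are the union of a gene's coding exons. Protein sequences were not used here.

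Counts were filtered with edgeR 4.0.16 (filterByExpr by group, a count minimum of 10, 11097 genes), normalized by TMM and modeled in R 4.3.3 (glmQLFit) with a term for each group, all 8 libraries together. Genes were called at a Benjamini-Hochberg adjusted p-value below 0.05 and a fold above 2. Standard errors come from the quasi-likelihood F statistic. Alternatives were other size factors, other filters, DESeq2 1.42.0, robust fitting, a replicate block, the groups compared alone, other coding lengths and leaving out each library. Fits were tested on simulated data. Replicates differed by more than sampling noise, the chi-square divided by its degrees of freedom being 14.5 to 45.5.

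The chains and the partner lists were chosen with earlier results of these data known, and some genes of the pathway are not reported here. Named are the 9 chains, SMARCB1, partner genes called between the lines (at most 6 a list), the 2 partner genes of smallest p-value for each Dox comparison, the 5 genes most like LAMB1 and the 3 least, and genes within 500 kb of LAMB1. ITGB1, DAG1, LAMC3, LAMB4 and the cell type markers were added for context.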

Additional observations from a re-analysis of the deposited data

How the results depend on the processing

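The number of genes called for Dox in the SMARCB1 line, 2 as reported, was 46 without a filter on low counts (38 higher, 8 lower), 1 with at least 10 counts in every library, 34 with DESeq2, 5 with only the groups compared, and 1 to 2 when each library was left out. For Dox in the GFP line, 0 as reported, it was 14 without a filter and 0 to 147 when each library was left out, the highest without GFP Dox replicate 2. For the difference between the Dox effects, 0 as reported, it was 15 without a filter, 1 with DESeq2 and 0 to 105 when each library was left out, the highest again without GFP Dox replicate 2. Between the lines, 552 under DMSO became 288 with at least 10 counts in every library and 299 to 438 when each library was left out, and 675 with Dox became 377 and 348 to 1372. The partner genes called between the lines, 8 under DMSO and 10 with Dox, stayed within 1.5 times of these counts in every alternative. The cause of these changes was not tested.

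No replicate pairing is stated. The deviations of same-numbered libraries correlated at 0.0454 to 0.28 over 6 pairs of groups, positive in all and below 0.1 in 1 pair. These values do not settle whether same-numbered libraries were handled together, and the main fit has no term for it. With the replicate number as a block, 13 genes were called for Dox in the SMARCB1 line, against 2 in the main fit.

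No chain was called for Dox in either line under the alternatives that gave it a value. The log2 fold change changed sign in 11 refits and kept its sign in 140. With each library left out in turn, the SMARCB1 line gave -0.34 (without SMARCB1 DMSO replicate 2) to 0.59 for LAMA3 and -0.14 (without SMARCB1 Dox replicate 2) to 0.22 for LAMB2. The GFP line gave, without GFP Dox replicate 1, -0.19 for LAMA3 and -0.16 for LAMA4, whose highest values were 0.99 and 0.63. It gave -0.12 (without GFP Dox replicate 2; -0.07 without GFP DMSO replicate 1) to 0.25 for LAMA5, -0.00472 (without GFP DMSO replicate 1) to 0.40 for LAMB2, and -0.04083 to 0.02626 for LAMC1, the highest without GFP DMSO replicate 2. LAMC1 there was 0.00398 in edgeR's fit with RLE size factors in place of TMM, and 0.00396 with DESeq2. Scaling by library size alone moved the median of all genes by over 0.1 for Dox in the SMARCB1 line (-0.02 to 0.09), for the difference between the Dox effects (-0.03 to 0.16) and for the lines with Dox (-0.01 to 0.11), so chains are to be read against these medians.

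The ratio of beta to gamma density was 0.712 in SMARCB1 DMSO and 1.03 in SMARCB1 Dox with the longest coding transcript as the length. The alpha to gamma ratio in GFP DMSO was 0.410 with the longest coding transcript. The call of ITGA3 with Dox was also lost with only the groups compared. LAMA1, LAMB1, COL4A5 and COL4A6 could not be fitted under the minimum of 10 counts per library, nor LAMA1 without SMARCB1 DMSO replicate 2 or LAMB1 with only the GFP groups compared, and the difference between the Dox effects could not be fitted with only the groups compared. Depth limits LAMA1, LAMA2, LAMB3 and, in the GFP line, LAMB1, whose counts are too few to set the size of a fold change.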
